A study of Mus musculus and Rattus norvegicus with 6 samples.

Results

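The miR-26 and miR-101 families are small groups of microRNAs (miRNAs) best known together as repressors of the chromatin enzyme Ezh2. They were described here in the retinas of rat and mouse. Members were chosen by name: every entry of either deposited table called miR-26 or miR-101, with any letter, copy or arm. This gave 18 of the 2679 entries, 8 of 764 in the rat table and 10 of 1915 in the mouse table. They stand for 11 different names, of which 7 were in both tables. The guide strands are listed for mouse as mmu-miR-26a-5p, mmu-miR-26b-5p, mmu-miR-101a-3p and mmu-miR-101b-3p and for rat with the prefix rno in place of mmu, and names are given without prefix from here on. The rat group held 3 libraries from wild-type Sprague Dawley rats and the mouse group 3 libraries from wild-type C57BL/6 mice, all from retinas at 9 weeks of age and none treated. The study asked which miRNAs the retina of each rodent holds. The rat libraries are called r1, r2 and r4 and the mouse libraries m1, m3 and m4, as their columns are. Strain, table and species change together in this design, so differences between them cannot be told apart.

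A miRNA is cut from a hairpin whose 5p and 3p arms can each give a mature strand. The arm that is kept and loaded into Argonaute is the guide, and the other, the passenger, is mostly destroyed. A guide finds messenger RNAs chiefly through its seed, bases 2 to 8 from the 5′ end, and lowers their output. Ezh2 is the catalytic subunit of Polycomb repressive complex 2, which methylates histone H3 and keeps developmental genes silent, in retinal progenitors among other cells. In human tumour cells miR-101 lowers EZH2, and miR-26a does so in lymphoma cells and in cultured mouse muscle cells. Ezh2 itself was not measured here, so nothing below bears on its level.

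The mature mouse guides are printed because their seeds set which names can act alike. All sequences are from RefSeq on GRCm38.p6, which held all 10 of the mouse member names. No rat sequence was used. Capitals mark the seed.
miR-26a-5p: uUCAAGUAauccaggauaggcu
miR-26b-5p: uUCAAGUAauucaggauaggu
miR-101a-3p: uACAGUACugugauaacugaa
miR-101b-3p: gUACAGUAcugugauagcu
miR-101c: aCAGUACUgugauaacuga
miR-144-3p: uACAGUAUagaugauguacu
The guides miR-26a-5p and miR-26b-5p share the seed UCAAGUA, which no other of the 1679 mature mouse names searched had. Counted from the 5′ end of miR-26a-5p, they differ by C11U and C21U, and miR-26b-5p is 1 base shorter (21 against 22 bases). The miR-101 names do not share a seed as annotated. The entry for miR-101b-3p starts 1 base earlier than that for miR-101a-3p, which moves its seed to UACAGUA, whereas miR-101a-3p has ACAGUAC. Over the 18 bases that both entries cover, they differ at 1 base, A16G in the numbering of miR-101a-3p. The entry for miR-101c lies wholly within miR-101a-3p, from its base 2 to its base 20, with 0 substitutions. The red blood cell miRNA miR-144-3p is no member, but its seed, ACAGUAU, differs from that of miR-101a-3p only at base 8 (C8U).

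The hairpins of miR-101a and miR-101b show where the annotated guides begin; capitals mark the guide.
Mir101a: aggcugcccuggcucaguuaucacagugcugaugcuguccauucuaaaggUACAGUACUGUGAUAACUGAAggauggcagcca
Mir101b: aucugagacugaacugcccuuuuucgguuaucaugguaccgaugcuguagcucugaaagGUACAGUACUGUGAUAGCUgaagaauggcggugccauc
Both hairpins carry a G just before the shared UACAGUAC, and only the miR-101b entry includes it. The deposited counts are per name and do not show at which base the reads began, so the seed in use by miR-101b in these retinas was not measured. Mir101a lies at chr4:101346945-101347027 on the minus strand, over an exon of the long noncoding RNA E130102H24Rik. Mir101b lies at chr19:29135279-29135375 on the plus strand, within an intron of Rcl1, which encodes a factor in ribosomal RNA processing. Mir101c, at chr9:3038669-3038743 on the minus strand, overlapped no other annotated gene. The miR-26 hairpins all sit in genes for small C-terminal domain phosphatases, on the plus strand like their hosts. Mir26b (chr1:74394310-74394394) is in an intron of Ctdsp1 and Mir26a-1 (chr9:119031796-119031885) in an intron of Ctdspl. Mir26a-2 (chr10:126995530-126995613) is in Ctdsp2 and overlaps an exon of some of its annotated transcripts. Mir26a-1 and Mir26a-2 give the same guide, so the counts of miR-26a-5p cannot be divided between them.

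The longest annotated 3′ untranslated region (UTR) of mouse Ezh2 among its protein-coding transcripts, 402 bases, holds matches to both families. They are shown 5′ to 3′ on the transcript strand, with the complement of the seed in capitals.
Ezh2 site for miR-26 (GRCm38 chr6:47530286-47530307, minus strand): atttgaataaagaaTACTTGAa
Ezh2 site for miR-101 (GRCm38 chr6:47530475-47530496, minus strand): ttcaggaaccttgaGTACTGTg
Ezh2 site for miR-101 (GRCm38 chr6:47530420-47530441, minus strand): tctgaatttgcaaaGTACTGTa
The motif TACTTGA, for the miR-26 seed, was found once, at bases 248 to 254. The motif GTACTGT, for the seed of miR-101a-3p, was found at bases 59 to 65 and 114 to 120. Only the transcript strand was searched. Among 15182 mouse genes with a 3′ UTR of at least this length, the first 402 bases held TACTTGA in 2.88% and GTACTGT in 2.71%, and both in 14 genes (0.0922%). The motif for the annotated seed of miR-101b-3p, TACTGTA, overlaps GTACTGT by 6 bases and matches only the second of the miR-101 sites; 3.37% of the windows held it. The motif for miR-101c, AGTACTG, also overlaps GTACTGT by 6 bases and matches both sites; 2.24% of the windows held it. These are matches of letters in the mouse sequence, not measured sites.

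The libraries held between 24169628 and 28198305 counts in rat and between 27843590 and 30514632 in mouse, so that 3 counts, the number below which absence was not read, came to at most 0.124 CPM (counts scaled to a common library total). Retinal miRNAs (miR-183-5p, miR-96-5p, miR-182, miR-124-3p and miR-9) summed to 45.0% to 54.0% of all counts in rat and 50.8% to 53.4% in mouse. Markers of other cells that a dissected retina can carry were summed in the same way. Pigment epithelium miRNAs (miR-204-5p and miR-211-5p, which neural retina also holds) summed to 2.45% to 3.08% of counts in rat and 1.38% to 1.61% in mouse. Red blood cell miRNAs (miR-451, miR-144-3p and miR-144-5p) summed to between 0.827 and 4.78 CPM in rat and between 10.4 and 12.8 CPM in mouse. Lens and cornea miRNAs (miR-184 and miR-205) summed to between 1136 and 9374 CPM in rat and between 311 and 1249 CPM in mouse. Muscle miRNAs (miR-1, miR-133a-3p and miR-206-3p) summed to between 44.3 and 66.9 CPM in rat and between 642 and 883 CPM in mouse. Most of the mouse sum was miR-1, at 622 to 858 CPM against 14.1 to 37.7 in rat, under names that differ between the tables. The low miR-133a-3p went the same way (1.12 to 3.05 CPM in rat, 3.34 to 4.92 in mouse). The other way went miR-206-3p, at 27.1 to 32.6 CPM in rat and 15.9 to 19.3 in mouse. Vessel miRNAs (miR-126a-3p, miR-143-3p and miR-145) summed to between 7510 and 7947 CPM in rat and between 4184 and 5005 CPM in mouse. Most of both sums was miR-143-3p, at 5272 to 6466 CPM in rat and 2607 to 3086 in mouse. The low miR-145 was also higher in every rat library than in any mouse library. The species overlapped for miR-126a-3p, at 1307 to 2174 CPM in rat and 1552 to 1892 in mouse. Leukocyte miRNAs (miR-142-3p, miR-223-3p and miR-150-5p) summed to between 36.4 and 65.9 CPM in rat and between 42.4 and 48.5 CPM in mouse. No marker found in the tables was at 0 in all libraries of a species, and the part of such cells in the results below was not tested. Rat library r1 stood apart: across the 542 names shared by both tables its Pearson r was 0.989 with r2 and 0.990 with r4, against 0.999 between r2 and r4.

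Together the members made up 4.18% ± 1.16 of all counts in rat and 3.50% ± 0.102 in mouse (SD, n = 3 each). Nearly all of this was guide. The miR-26 guides held 2.08% of counts in r1, 4.15% in r2 and 3.70% in r4, against 2.68% in m1, 2.83% in m3 and 2.89% in m4. The miR-101 guides, with miR-101c of the mouse table counted among them, held 0.765% in r1, 0.857% in r2 and 0.966% in r4, against 0.696% in m1, 0.748% in m3 and 0.629% in m4. By share of counts the rat libraries therefore lay on both sides of the mouse libraries for miR-26 and above all of them for miR-101. Counts of different miRNAs are set side by side here without correction for length, which is 19 to 22 bases for these names, and adapter ligation favours some ends over others.

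The most abundant member was miR-26a-5p, the shared product of Mir26a-1 and Mir26a-2 and a brake on cell growth in many tissues. It had 437033 counts in r1, 918024 in r2 and 901083 in r4, against 636802 in m1, 737179 in m3 and 698894 in m4. It ranked 11 in r1 and 6 in r2 and r4 among all names of its table, against 8 in m1 and m3 and 7 in m4. The names shared by both tables held 63.7% to 69.2% of all counts in rat and 71.5% to 73.5% in mouse. TMM factors on these names, which set the bulk of miRNAs level between libraries, were 0.81 in r1, 1.29 in r2 and 1.32 in r4. They were 0.87 in m1, 0.86 in m3 and 0.97 in m4. Scaled CPM refer to the shared names and are not comparable with the marker CPM above, which are of all counts. Scaled in this way, miR-26a-5p stood at 35222 CPM in r1, 40523 in r2 and 35809 in r4. The mouse libraries stood at 36874 CPM in m1, 38027 in m3 and 35482 in m4. Library r1 was still the lowest of the 6, but scaling narrowed its gap to the others, and the species overlapped. Its mean was 37185 CPM ± 2906 in rat and 36795 CPM ± 1274 in mouse (SD, n = 3 each), a log2 difference of 0.02 ± 0.16 (SE; edgeR quasi-likelihood test, Benjamini-Hochberg adjusted p = 0.944). By size, this difference ranked 392 of 398 miRNAs tested.

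The partner with the same seed, miR-26b-5p, was the lesser product of the family. It had 66380 counts in r1, 132275 in r2 and 142938 in r4, against 110783 in m1, 126998 in m3 and 116678 in m4. Scaled, it was at 5350 CPM in r1, 5839 in r2 and 5680 in r4, against 6415 in m1, 6551 in m3 and 5924 in m4. All 3 rat libraries lay below all 3 mouse libraries. The log2 difference was -0.16 ± 0.15 (SE) and was not called (edgeR adjusted p = 0.392). Without r1 it was -0.13 ± 0.06 (SE; adjusted p = 0.0675). Scaled by library totals alone the difference turned to 0.19 (shared names) or 0.09 (all names), also not called.

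The leading product of the other family, miR-101a-3p, had 147698 counts in r1, 172318 in r2 and 216044 in r4, against 144907 in m1, 171891 in m3 and 132123 in m4. Scaled, it was at 11903 CPM in r1, 7606 in r2 and 8586 in r4, against 8391 in m1, 8867 in m3 and 6708 in m4. Library r1 was the highest of the 6 on this scale, although its share of all counts, 0.611%, was the lowest in rat. The log2 difference was 0.23 ± 0.21 (SE; edgeR adjusted p = 0.404) and was 0.03 without r1. With library totals of the shared names it was 0.52 and called (adjusted p = 0.0195), and with totals over all names it was 0.41 and not called (adjusted p = 0.0735).

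The paralog miR-101b-3p, from the Rcl1 intron, had 37107 counts in r1, 44514 in r2 and 56486 in r4, against 47449 in m1, 54701 in m3 and 43974 in m4. Scaled, it was at 2991 CPM in r1, 1965 in r2 and 2245 in r4, against 2748 in m1, 2822 in m3 and 2233 in m4, so that the species overlapped. The log2 difference was -0.12 ± 0.20 (SE; edgeR adjusted p = 0.660). Without r1 it was -0.30 ± 0.09 and was called (adjusted p = 0.0114). It was above 0 with library totals alone, at 0.18 (shared names) and 0.07 (all names).

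**Figure D1:**
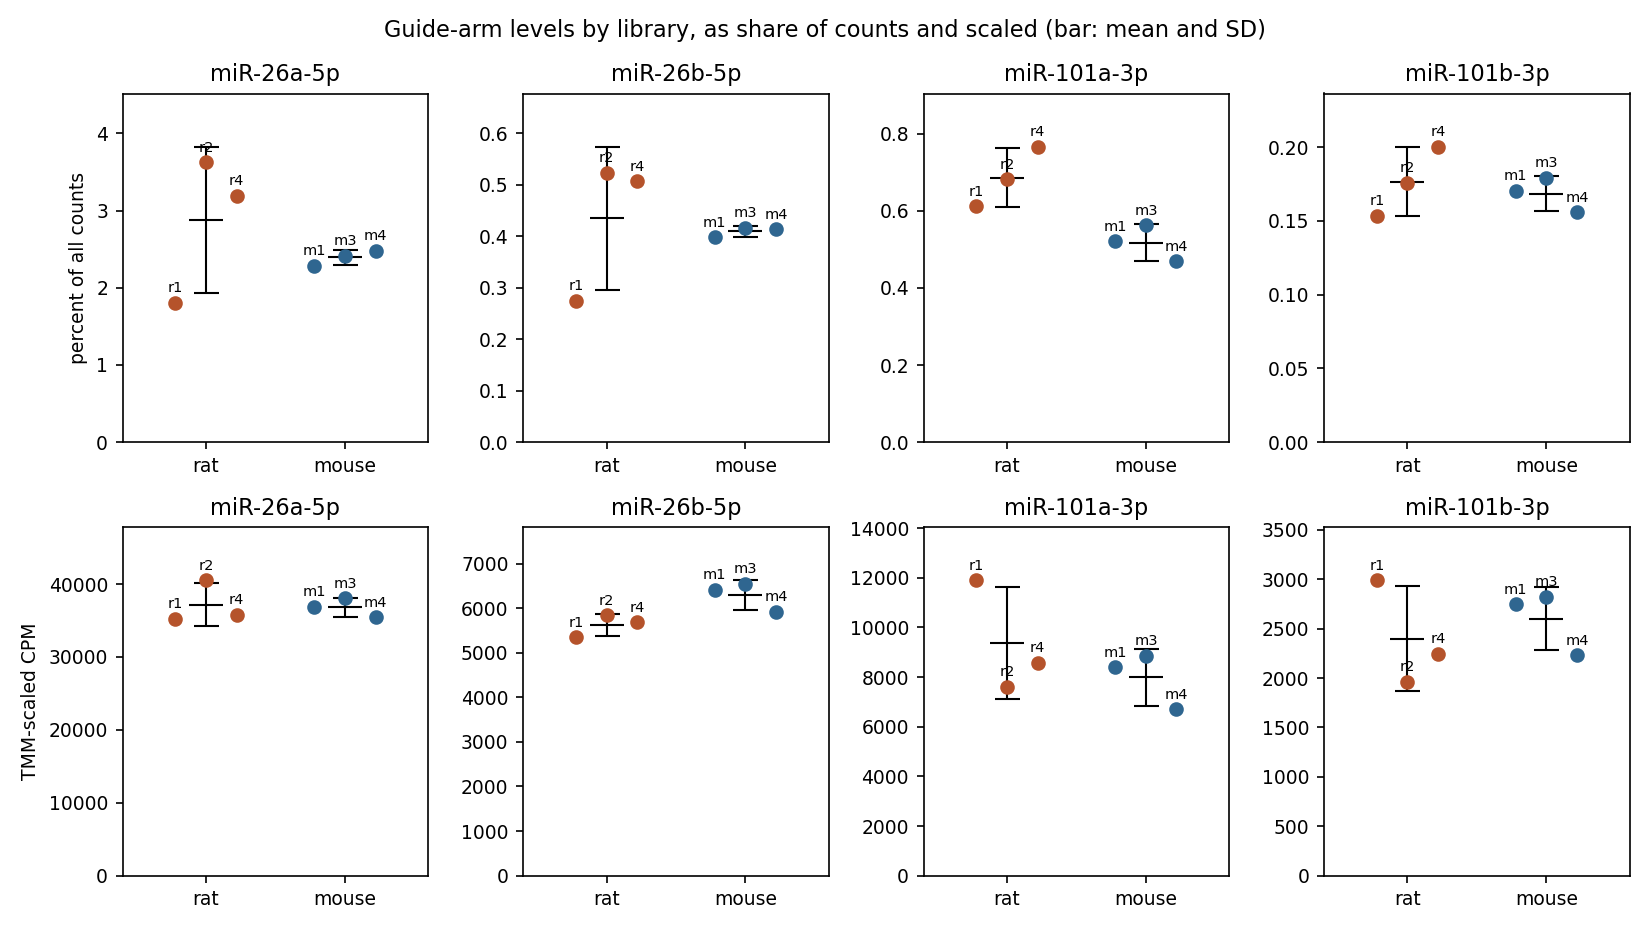
Levels of the 4 guides in each library, as percent of all counts (upper row) and as TMM-scaled CPM (lower row), with rat left of mouse; points are libraries and bars the mean and SD of 3. Library r1 is the lowest rat library for every guide by share of counts, but for miR-101a-3p and miR-101b-3p it is the highest of all 6 libraries after scaling.

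None of the 4 guides was called (0 of 4 at an adjusted p under 0.05 with edgeR, 0 of 4 unadjusted, and 0 of 4 by DESeq2), where 50% of the 398 tested miRNAs were called and 55.8% passed unadjusted. By direction, 25.6% of all tested miRNAs were higher in rat and 24.4% lower. Libraries of the species did not overlap for 1 of the 4 guides, miR-26b-5p, against 59.8% of all tested miRNAs. The median log2 difference of the 4 was -0.05, against 0.08 for all miRNAs tested. With library totals of the shared names these medians were 0.28 for the guides and 0.43 for all. Within species, the miR-26 guides were steady after TMM scaling. The SD of log2 CPM was 0.11 for miR-26a-5p and 0.06 for miR-26b-5p in rat. The rat median over 158 miRNAs of at least 100 CPM was 0.29. In mouse these SDs were 0.05 and 0.08, against a median of 0.10. The miR-101 guides spread more on this scale, with 0.33 (miR-101a-3p) and 0.31 (miR-101b-3p) in rat and 0.21 and 0.18 in mouse. In rat this order leaned on the scaling, since by share of all counts the miR-26 guides spread more. There miR-26a-5p ran from 1.81% in r1 to 3.63% in r2, and miR-26b-5p from 0.275% to 0.523%. By the same measure miR-101a-3p ran from 0.611% in r1 to 0.766% in r4, and miR-101b-3p from 0.154% to 0.200%. In whole retinas, fewer cells of a type and less RNA per cell cannot be told apart.

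Ratios of members within a library do not depend on depth or scaling factors, and in both families the a-lettered paralog outweighed its partner by more in every rat library than in any mouse library. The ratio of miR-26a-5p to miR-26b-5p was 6.58 in r1, 6.94 in r2 and 6.30 in r4, against 5.75 in m1, 5.80 in m3 and 5.99 in m4. This order held in r1 as in the others. The difference of the mean log2 ratios was 0.18 ± 0.04 (SE, n = 3 each), a ratio 1.13 times that in mouse. The ratio of miR-101a-3p to miR-101b-3p was 3.98 in r1, 3.87 in r2 and 3.82 in r4, against 3.05 in m1, 3.14 in m3 and 3.005 in m4. Again no library overlapped, and the log2 difference was 0.34 ± 0.03 (SE, n = 3 each), a ratio 1.27 times that in mouse. The start of the rat miR-101b-3p entry was not looked up, nor was any rat sequence of the miR-26 guides. For both paralog ratios, a difference between the annotations of the tables and one between the retinas cannot be told apart. For each of these ratios the 2-sided exact permutation test gave p = 0.1, the smallest that 3 libraries against 3 allow, and 0.15 after adjustment over the 3 ratios compared. This test can therefore not reach the threshold of 0.05 for a single ratio of 3 libraries against 3. Lack of overlap was common in these data, at 59.8% of all single miRNAs tested. How often ratios of other miRNA pairs do not overlap was not computed, so the order is not shown to be particular to these families.

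Put as shares, miR-26a-5p made up 86.8% ± 0.549 of miR-26 guide counts in rat and 85.4% ± 0.268 in mouse (SD, n = 3 each). Of the miR-101 guide counts, which in mouse include miR-101c at 0.765% ± 0.0278, miR-101a-3p made up 79.6% ± 0.332 in rat and 74.8% ± 0.412 in mouse, and miR-101b-3p 20.4% ± 0.332 in rat and 24.4% ± 0.419 in mouse (SD, n = 3 each). The balance between the families showed no such order. The ratio of miR-26 to miR-101 guides, miR-101c included, was 2.72 in r1, 4.84 in r2 and 3.83 in r4, against 3.86 in m1, 3.78 in m3 and 4.60 in m4. The rat libraries spanned the whole mouse range, and r1 was the lowest of the 6. The log2 difference was -0.14 ± 0.26 (SE, n = 3 each; 2-sided exact permutation p = 0.8) and was 0.08 without r1.

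**Figure D2:**
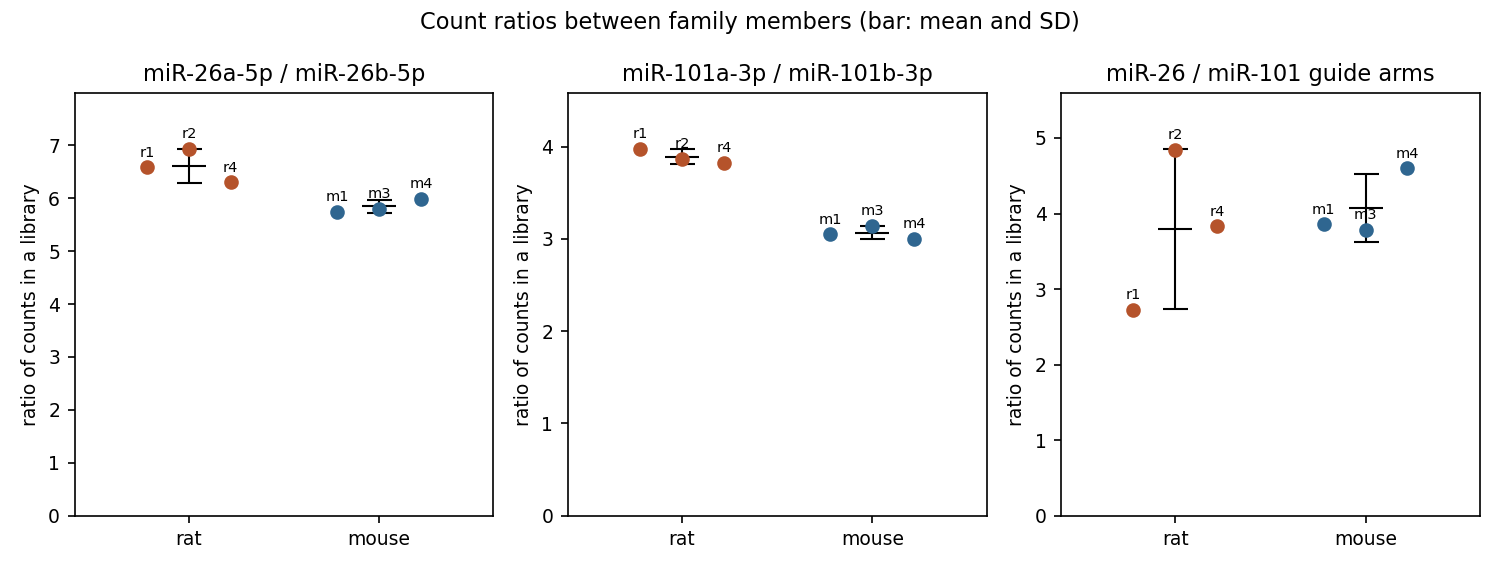
Ratios of counts within each library between the miR-26 paralogs, between the miR-101 paralogs and between the guides of the families, with rat left of mouse; points are libraries and bars the mean and SD of 3. Both paralog ratios are higher in every rat library than in any mouse library, whereas the ratio between the families overlaps.

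Reads of near-identical names may have been counted under more than one of them or divided between them, since the authors' rule for such reads is not given in the sources used here. This bears most on miR-101c, a name of the mouse table only. It had 1539 counts in m1, 1740 in m3 and 1310 in m4, or 52.9 CPM ± 5.65 of all counts (SD, n = 3). For every 100 counts of miR-101a-3p there were 1.06 of miR-101c in m1, 1.01 in m3 and 0.992 in m4. The names thus kept almost the same proportion in each mouse library. A miR-101a-3p read trimmed by a base at each end has the sequence of miR-101c, so the origin of these counts cannot be told apart. Adding miR-101c to miR-101a-3p in mouse, an alternative chosen after the data were examined, left the difference of the miR-101a to miR-101b ratio at 0.33 on the log2 scale.

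Passenger strands were rare in both families and gave the largest difference in miR-26a. The 3p names of miR-26a are not the same in the tables. The rat table has miR-26a-3p, with 4 counts in r1, 10 in r2 and 8 in r4. The mouse table has miR-26a-2-3p, with 256 counts in m1, 226 in m3 and 263 in m4, and miR-26a-1-3p, with 3, 9 and 3. In mouse nearly all passenger reads therefore bore the name of the Ctdsp2 hairpin. The mouse strands behind these names are shown with the seed in capitals.
miR-26a-1-3p: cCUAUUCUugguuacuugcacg
miR-26a-2-3p: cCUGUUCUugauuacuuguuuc
miR-26b-3p: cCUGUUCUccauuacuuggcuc
Over their 22 bases miR-26a-2-3p and miR-26a-1-3p match at 16. The strands miR-26a-2-3p and miR-26b-3p share the seed CUGUUCU. Which of the miR-26a hairpins the rat name stands for is not given in the sources used here.

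With the mouse names summed, the miR-26a passenger made up 0.000915% of both arms in r1, 0.00109% in r2 and 0.000888% in r4, against 0.0407% in m1, 0.0319% in m3 and 0.0380% in m4. The exact (Clopper-Pearson) 95% binomial intervals, which cover counting error only since sequenced copies are not independent molecules, ran from 0.000249% to 0.00234% over the rat libraries and from 0.0279% to 0.0459% over the mouse libraries. The log2 ratio of 5p to 3p counts, with 0.5 added to each, was 16.56 ± 0.14 in rat and 11.41 ± 0.18 in mouse (SD, n = 3 each). The difference of 5.15 ± 0.20 (SE) was called by limma (adjusted p = 1.11e-05), and ranked 6 by size of the 170 hairpins tested. Of those hairpins 24.7% were called, 8.82% with relatively more 5p in rat and 15.9% with less. It rests on the name miR-26a-2-3p. Against miR-26a-1-3p alone, a match chosen after the data were examined, the difference was -0.55 ± 0.40 and was not called (adjusted p = 0.369). Summed over 3 libraries, the rat name had 22 counts, against 15 for mouse miR-26a-1-3p and 745 for mouse miR-26a-2-3p, and a rat counterpart of miR-26a-2-3p was not analysed here. A difference between the annotations of the tables and a difference between the retinas cannot be told apart.

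The other passengers could be matched by name. The passenger miR-26b-3p had 23 counts in r1, 142 in r2 and 98 in r4, against 65 in m1, 82 in m3 and 86 in m4. The mouse values lay within the wide rat range, and r1 was the lowest. Its log2 difference in abundance was -0.01 ± 0.37 (SE; edgeR adjusted p = 0.978), and the arm ratio differed by 0.04 ± 0.42 (SE; limma adjusted p = 0.953). The passenger miR-101a-5p had 14 counts in r1, 42 in r2 and 35 in r4, against 12 in m1, 17 in m3 and 6 in m4. It was the only tested member to be called in abundance, with 1.46 CPM ± 0.367 in rat and 0.625 CPM ± 0.292 in mouse (SD, n = 3 each), a log2 difference of 1.24 ± 0.40 (SE; edgeR adjusted p = 0.0287). That is 1 of the 6 members tested, against 50% of all miRNAs tested. At such counts the call is frail, and it was lost without r2, r4, m1 or m4, with adjusted p between 0.0531 and 0.0949. Relative to its guide the 5p strand of miR-101a was 1.07 ± 0.44 higher on the log2 scale (SE), which was not called (limma adjusted p = 0.146), but the difference was called without r1, at 1.41 (adjusted p = 0.0481).

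The passenger miR-101b-5p had 0 counts in every library but r2, where it had 1. A count of 3 would have been 0.00531% to 0.00808% of both arms in the rat libraries and 0.00548% to 0.00682% in the mouse libraries. A difference between shares below this level was not detectable at this depth. Ranked by the size of the mean log2 arm ratio among the 170 hairpins, miR-26a came first in rat and ranked 16 in mouse, while miR-101b ranked 2 in rat and 1 in mouse. The hairpin of miR-101a ranked 11 in rat and 7 in mouse, and that of miR-26b ranked 23 in rat and 22 in mouse. The values of miR-101b are set by the 0.5 added to each count. The ranks of miR-26a rest on 3p names that are not the same in the tables.

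**Figure D3:**
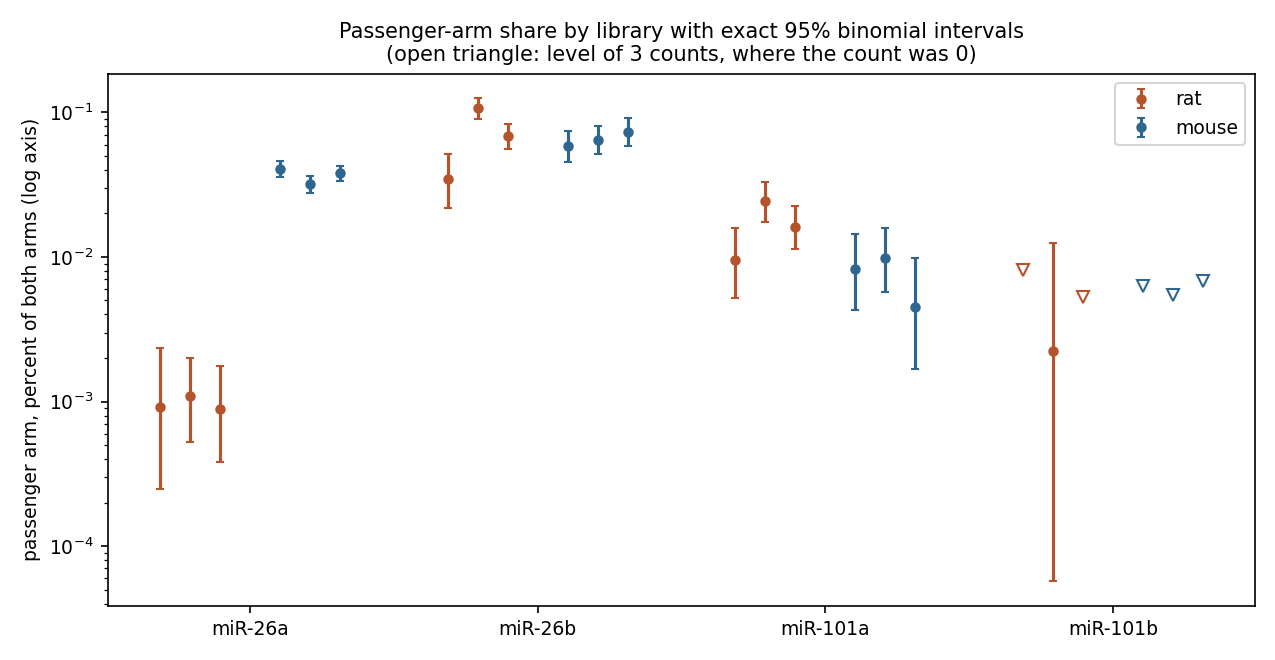
Passenger strand of each hairpin as percent of the counts of both arms, on a log axis, for each rat (left) and mouse (right) library; points carry exact (Clopper-Pearson) 95% binomial intervals, which cover counting error only, and open triangles mark the level of 3 counts where the count was 0. For miR-26a the rat libraries lie near 0.001% and the mouse libraries between 0.0319% and 0.0407%, while for the other hairpins the species overlap or the counts are near 0.

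The tested miRNAs whose profile over the 6 libraries came closest to a guide were sought among 158 with at least 100 CPM in a species, after each profile was centred on its own mean. For miR-26a-5p they were miR-23a-3p, miR-26b-5p and let-7e-5p, with root mean square differences of 0.08, 0.10 and 0.10 in log2 CPM, where the median over 157 candidates was 0.39. For miR-26b-5p they were miR-103-3p (0.05), miR-23b-3p (0.06) and miR-22-3p (0.07), and miR-26a-5p ranked 7. For miR-101a-3p they were miR-99a-5p (0.12), miR-330-5p (0.12) and miR-100-5p (0.12). For miR-101b-3p they were miR-30c-2-3p (0.10), miR-488-3p (0.13) and miR-340-3p (0.14). The miR-101 paralogs, at 0.17 from each other, ranked 17 and 11 in each other's lists, so the partner of the same family was not the closest profile for any of the 4 guides. All profiles share the 6 libraries and their scaling factors.

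Other miRNAs reported to lower Ezh2 in cultured tumour cells or muscle give the setting for these families. Of 10 such miRNAs, all tested, 1 was higher in rat, 6 were lower and 3 were not called, beside 25.6% higher and 24.4% lower among all tested miRNAs. Those lower in rat were let-7b-5p (log2 difference -0.58 ± 0.16), let-7c-5p (-0.48 ± 0.16), miR-98-5p (-0.46 ± 0.16), miR-124-3p (-0.71 ± 0.17), miR-217-5p (-1.02 ± 0.25) and miR-30d-5p (-0.75 ± 0.17). The miRNA higher in rat was miR-25-3p (0.47 ± 0.17). The let-7 miRNAs and miR-98 share a seed and are not independent examples. Tested members of the same families that are not on the list varied more. The other let-7 5p strands ran from -0.72 ± 0.16 (let-7d-5p) to 0.47 ± 0.25 (let-7i-5p). The other miR-30 5p strands ran from -0.88 ± 0.19 (miR-30a-5p) to 0.11 ± 0.20 (miR-30c-5p). The values not called were let-7a-5p (-0.38 ± 0.17), miR-138-5p (-0.39 ± 0.23) and miR-214-3p (-0.10 ± 0.41), with SE throughout. The median of the 10 was -0.47, and 9 of the 10 did not overlap between species, against 59.8% of all tested miRNAs. These calls lean on the scaling: with library totals of the shared names 1 was higher and 1 lower, and the median was -0.12 where all tested miRNAs had 0.43. Without r4 or m3, 3 were lower. None of the 10 was called higher without m1, without m3, without m4 or with no filter on low counts, so the call of miR-25-3p (adjusted p = 0.0431) was lost there. By level, miR-30d-5p at 30027 CPM ± 1453 in rat and 50430 CPM ± 3862 in mouse (SD, n = 3 each) was of the same order as miR-26a-5p. The seed relative miR-144-3p was near the floor, with 4, 24 and 4 counts in r1, r2 and r4 against 20, 22 and 19 in m1, m3 and m4, and was not called (log2 difference -1.03 ± 0.56, edgeR adjusted p = 0.160).

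**Figure D4:**
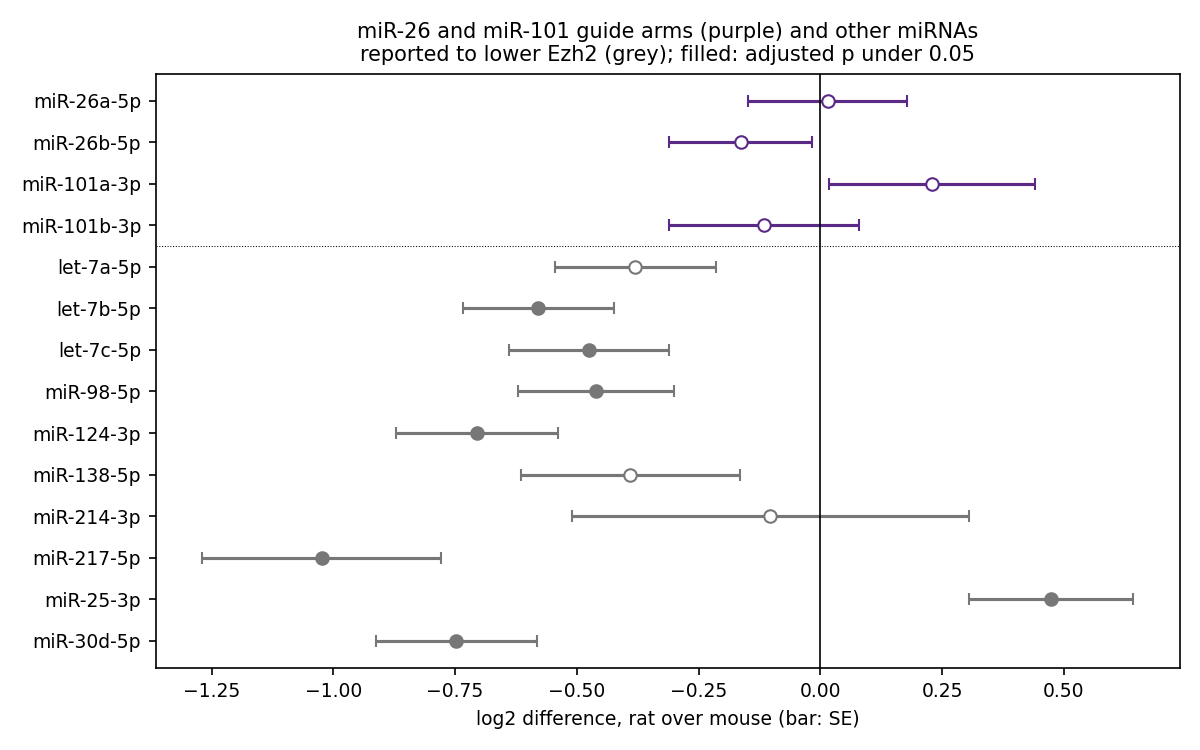
Log2 difference in abundance between rat and mouse, positive where higher in rat, for the 4 guides (purple) and 10 other miRNAs reported to lower Ezh2 (grey), with bars of 1 SE and filled points where the edgeR adjusted p was under 0.05. The guides lie between -0.16 and 0.23 with none filled, and 6 of the 10 others are filled below 0 and 1 above.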

How the data were processed

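Per the labels' protocols, dissected retinas were extracted with a miRNeasy kit and small RNA libraries were read on a HiSeq-2500; that text names rat eyes for both species. The values used are raw counts for each mature name, deposited as 1 table per species. The aligner, the miRNA release and the handling of reads that match several names: not given in the sources used here. Since no label ties a library to its own animal, p-values reflect variation among libraries, possibly technical. Columns were assigned to a species by prefix, not to a numbered sample, and names were joined after removal of the species prefix (542 shared).

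For abundance, edgeR 4.0.16 under R 4.3.3 was used (filterByExpr, 398 kept; TMM; quasi-likelihood F test, species as the only term), with SE taken as the log2 difference over the root of F. Arm ratios were tested with limma 3.58.1 on log2 ratios with 0.5 added to each count, for hairpins with at least 50 counts over both arms in every library. Both were tested on simulated data with independent libraries and the spread seen here, so a departure such as that of r1 was not covered. A call is an adjusted p under 0.05. Ratios between members were compared by exact permutation (scipy 1.17.1). Alternatives were DESeq2 1.42.0, other scalings, filters and pseudocounts, wider names and leaving out libraries. Members, lists and the rule for close profiles (the 3 nearest with at least 100 CPM) were chosen with earlier results of these data known.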

Additional observations from a re-analysis of the deposited data

How the results depend on the processing

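For the 9 abundance and arm results with a test that could pass the threshold, 76 alternative values kept their direction and their side of it and 25 did not. The 3 ratios within libraries are not counted here, since their exact test cannot pass. The number of miRNAs called was 199 and between 149 and 230 under other scalings, tools, filters and wider names; leaving out 1 library gave 153 to 293, the highest without r1. Among guides, miR-26a-5p was at -0.0016 with no filter on low counts and -0.047 with wider names, and between -0.041 and 0.054 when 1 library was left out, never called. Library totals of the shared names and of all names turned miR-26b-5p to 0.19 and 0.087, miR-101b-3p to 0.18 and 0.067 and the passenger miR-26b-3p to 0.41 and 0.32, none called, and gave miR-101a-3p 0.52, called. These totals moved the median of all tested miRNAs from 0.08 to 0.43 and 0.33. With 1 library left out, miR-101b-3p ranged from -0.30 to 0.019, miR-26b-3p from -0.46 to 0.29, miR-101a-5p from 0.93 to 1.58 and the ratio of miR-26 to miR-101 guides from -0.33 to 0.084. The arm ratio of miR-26a was -0.55 against miR-26a-1-3p alone and 4.47 with a pseudocount of 5. That of miR-26b was -0.00027 with a pseudocount of 5 and ranged from -0.39 to 0.41 without 1 library, and that of miR-101a from 0.75 to 1.41. Both paralog ratios stayed above 0 under the alternatives run, at 0.14 to 0.21 and 0.33 to 0.36 without 1 library. The cause of these changes was not tested. Passengers at under 100 counts are limited by depth. No paired analysis was possible because the count columns are numbered otherwise than the labelled samples and the species share no animals.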
